A study of Mus musculus with 221 samples.

Results

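The transcripts of the egg coat and of the oocyte's own growth factors were examined in early 2-cell mouse embryos. The 7 genes were taken by name from the 55291 genes of the count table: Zp1, Zp2 and Zp3, which encode the glycoproteins of the zona pellucida, Gdf9 and Bmp15, which encode secreted growth factors of the oocyte, and Figla and Nobox, which encode transcription factors of the oocyte. All 7 were in the table. Each library held the RNA of 1 whole embryo.

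Embryos were made by in vitro fertilization. The sires were C57BL/6N males whose food for 2 weeks, from 6 weeks of age, was rich in fat (high-fat diet, HFD) or poor in it (low-fat diet, LFD). Of the embryos, 99 came from LFD males and all others from HFD males. The oocytes of both groups came from superovulated females, 3 to 16 weeks old, of the strain C57BL/6N-mtST, whose nuclear DNA is C57BL/6N and whose mtDNA is that of the Staudach (ST) line. Per the study's methods, frozen and thawed sperm of 4 males of each diet was used, and each fertilization date had 1 male per diet and other males than the dates before. The labels name neither sire, date nor sex for an embryo. The p-values below therefore treat embryos as independent, and a difference between diets cannot be told apart from one between a few sires.

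The zona pellucida is the coat that surrounds the egg, binds sperm and persists around the early embryo. Its messages are made during oocyte growth, under FIGLA, a helix-loop-helix factor, while NOBOX, a homeobox factor, is known for activating Gdf9 and other oocyte genes. GDF9 and BMP15 are ligands of the TGF-beta family that act on the surrounding granulosa and cumulus cells. The oocyte is transcriptionally silent from the end of growth until the embryonic genome is activated at the 2-cell stage, and many of its messages are deadenylated and degraded in between. Amounts at the 2-cell stage thus show which of these messages are still present with a poly(A) tail. The libraries were copied from that tail, so a message present with a short tail can be counted low. Amount and tail length cannot be told apart here. Oocytes were not analysed here, so the values are levels and not fractions that remain. A smaller share of a message and a larger total of other RNA in an embryo cannot be told apart.

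Total counts ran from 1937251 to 17246791 per embryo (median 5706066). Between 11364 and 21638 genes had a count. In 8 embryos the number of detected genes lay more than 3 scaled median absolute deviations below the median: HFD embryos 42, 48, 64 and 72 and LFD embryos 2, 26, 33 and 73, by the numbers in the labels. They are called few-gene embryos here, and results that rest on them are given without them. At the median, defining markers of cumulus and granulosa cells and of sperm were low. The 12 cumulus and granulosa markers summed to a median of 21.05 counts per 1000000 counts (CPM) in HFD and 19.1 in LFD embryos, and 8 of them had a median of 0 in both diets. The cumulus and granulosa sum reached 101.1 CPM in the highest HFD embryo and 59.1 CPM in the highest LFD embryo. The 7 sperm markers summed to medians of 1.73 and 2.20 CPM, with 20.1 and 6.19 CPM in the highest embryos. The 10 macrophage markers summed to higher medians, 58.7 and 61.5 CPM, above the Zp1 median of 44.3 CPM. Of the 10, 5 had a median of 0 in both diets. The highest medians were those of Mrc1 (23.6 CPM) and Csf1r (21.2 CPM). The sum of the 10 reached 2622 CPM in the highest HFD embryo against 111.5 in the highest LFD embryo. Of the 4 macrophage markers tested, Cd68 alone was called, with a positive log2 fold change, HFD over LFD (1.55 ± 0.30, SE, edgeR FDR 0.000265). The Cd68 median was not higher in HFD embryos (3.05 CPM, against 3.33 CPM in LFD embryos). Its highest value in any embryo was 305 CPM. C1qb (0.49, FDR 0.373), Csf1r (0.13, FDR 0.627) and Mrc1 (-0.13, FDR 0.64) were not called. With the macrophage marker level as a covariate, 0 of the 6 messages tested below were called between the diets by edgeR.

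Because Smart-seq2 copies RNA from its poly(A) tail, the 3′ ends of the 7 messages are shown first. These are the 30 bases around the polyadenylation signal of the annotated transcripts (GENCODE M21, GRCm38, RNA sense strand written as DNA), with the signal AATAAA or ATTAAA and, where present, the cytoplasmic polyadenylation element TTTTAT in capitals.
Zp1: atcagatattaaatggactcAATAAAccat
Zp2: gctgtttgtctttaaactctAATAAAatta
Zp3: ctaccttgtatcccttccgcAATAAAagaa
Gdf9: gtggTTTTATgtgacggaagAATAAActgt
Bmp15: gtattttcttaatcttaaagAATAAAtttt
Nobox: cctaggcagtgcatgcaataAATAAAacag
Figla: tatttttcatgtaaaatataATTAAAatga
A signal lay within the last 50 bases in all 7, against 72.4% of 21801 genes. Gdf9 alone of the 7 had such an element, TTTTAT or the variant TTTTAAT, in its last 100 bases, where 16.6% of genes had one. Figla alone had the variant ATTAAA.

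Zp1 lies on chromosome 19 (10914287 to 10920632, minus strand), Zp2 on chromosome 7 (120126772 to 120145291, minus), Zp3 on chromosome 5 (135980099 to 135988624, plus) and Gdf9 on chromosome 11 (53431023 to 53437904, plus). Bmp15 lies on the X chromosome (6314107 to 6320721, minus). Figla and Nobox are both on chromosome 6, at 86016171 to 86020996 (plus) and 43303674 to 43309554 (minus). Counts were taken over the exons of these models, which measured between 836 bases (Figla) and 3060 bases (Bmp15). No other gene of the table overlapped any of the 7 on either strand. The nearest neighbour was Uqcrq, 191 bases from Gdf9.

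Of the 7 messages, 6 had a count in every embryo. The growth factors were the most abundant. To compare genes, CPM values were divided by the length of the gene's exons in kilobases. On this scale Bmp15 had a median of 466 over all embryos, and only 65 of the 17531 genes with a median above 0 were higher. Gdf9 had a median of 166, with 238 genes above it. Nobox followed at 50.7, Zp3 at 35.98, Zp2 at 27.1, Zp1 at 22.4 and Figla at 0.471.

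The order of these levels was firm at its upper and lower ends and loose in the middle. Bmp15 was above Gdf9 in 214 embryos (96.8% of all, exact 95% interval 93.6 to 98.7), and Gdf9 was above Nobox in 220. Zp1 was above Figla in every embryo. Nobox was above Zp3 in 159 embryos, Zp3 above Zp2 in 146 and Zp2 above Zp1 in 149. The mean log2 differences of those 3 pairs were 0.54 ± 0.89 (SD), 0.40 ± 0.89 and 0.28 ± 0.75, smaller than the spread over embryos. Zp3, Zp2 and Zp1 made up medians of 40.6%, 31.6% and 26.1% of the summed zona level per length. The summed growth factor level exceeded the summed zona level in every embryo, by a median of 7.04 times (range 2.19 to 21.97).

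**Figure D1:**
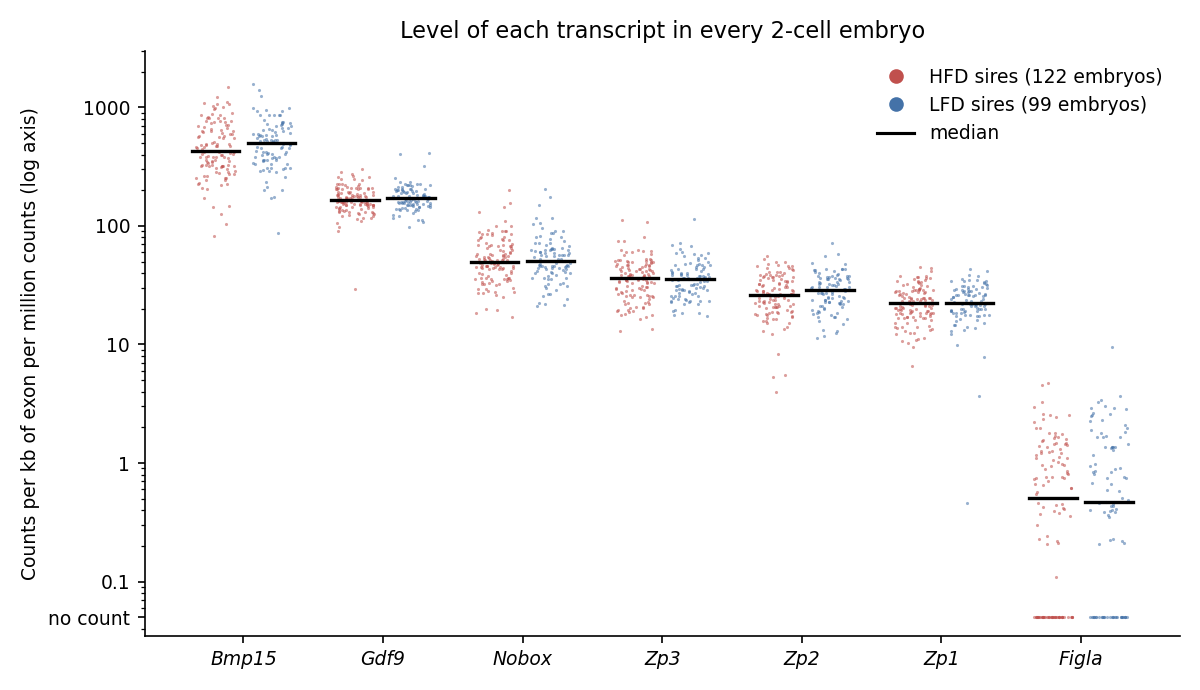
Level of each of the 7 transcripts in every embryo, as CPM per kilobase of exon on a log axis. Each point is 1 embryo (red, HFD sires; blue, LFD sires), black lines are medians, and embryos without a count are drawn at the bottom. The medians fall from 466 for Bmp15 to 0.471 for Figla, and the points of the diets overlap for each transcript.

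Embryos differed by less in Gdf9 than in Bmp15. The 90th percentile of Gdf9 was 1.72 times its 10th percentile, against 3.41 times for Bmp15, 2.92 for Nobox, 2.62 for Zp3, 2.55 for Zp2 and 2.43 for Zp1. The highest Gdf9 values were in LFD embryos 13 and 83 (837 and 818 CPM). The same 2 embryos were among the highest 3 for Bmp15, with 4248 and 4808 CPM, and LFD embryo 13 was also highest for Zp2 (195 CPM) and Nobox (410 CPM). High values of these 4 messages were thus found in the same embryo.

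Some of the lowest values came from few-gene embryos. HFD embryos 48, 64 and 42 had the lowest Zp2 levels (10.8, 14.5 and 15.1 CPM). HFD embryo 64 also had the lowest Gdf9 (59.4 CPM), while its Nobox level of 200.3 CPM was above the median of 101.9. LFD embryo 33 held 4 counts of Zp1 (0.918 CPM), with Zp2 at 117 CPM and Gdf9 at 451 CPM in the same library. Zp3 went the other way in 2 few-gene embryos, with 152 CPM in LFD embryo 73 and 149 CPM in HFD embryo 42, the highest values of all.

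Figla was close to the limit of detection. It had a count in 147 embryos (66.5% of all, exact 95% interval 59.9 to 72.7) and more than 10 counts in 20. In the 74 embryos without a count, the limit that 3 counts allow lay between 0.228 and 1.55 CPM, depending on depth. A count was present in 78 HFD embryos (63.9%) and 69 of 99 LFD embryos (69.7%), which did not differ past the threshold (Fisher's exact test, 2-sided, p = 0.392). Embryos with a count had a median total count of about 5823240 and those without a count one of about 5381250. Intervals and limits cover counting error only, since PCR copies are not separate molecules. The highest value was 7.94 CPM, from 40 counts in LFD embryo 26, a few-gene embryo.

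The first comparison asked whether the diet of the father went with the amount of these messages. None of the 6 tested messages was called (edgeR's quasi-likelihood test, false discovery rate, FDR, under 0.05). Of all 14820 genes tested, 314 were called (2.12%), 159 of them higher in HFD embryos (1.07%) and 155 lower (1.05%). Figla did not pass the filter on low counts and was not tested. At an unadjusted p under 0.05 the count among the 6 was also 0, against 1890 of 14820 over all genes, and the count of calls was 0 by DESeq2 and by limma-voom.

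Zp1 had 12.9 CPM in the lowest HFD embryo, 44.2 at the median and 90.03 in the highest, against 0.918, 44.3 and 85.8 CPM in LFD embryos. Its log2 fold change, HFD over LFD, was -0.00 ± 0.07 (SE; FDR 0.995). Zp2, whose product is cut after fertilization to block further sperm, ranged from 10.8 over 71.8 to 152 CPM in HFD and from 31.2 over 78.5 to 195 CPM in LFD embryos. Its log2 fold change was -0.04 ± 0.08 (FDR 0.885), with 4 HFD embryos below every LFD embryo. Of these, 3 were few-gene embryos, and the remaining one was HFD embryo 28 (22.5 CPM). Without the few-gene embryos the log2 fold change was -0.00 (FDR 0.99).

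Zp3, the coat protein first described as the sperm receptor, had 17.2, 48.3 and 149 CPM in HFD and 22.8, 46.95 and 152 CPM in LFD embryos, with a log2 fold change of 0.06 ± 0.07 (FDR 0.799). Gdf9 had 59.4, 335 and 609 CPM against 197, 346 and 837 CPM, with a log2 fold change of -0.02 ± 0.05 (FDR 0.929). The 95% interval of the Gdf9 ratio, 0.916 to 1.06, was the narrowest of the 6. The groups overlapped almost fully for both genes.

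Bmp15 had 252, 1305 and 4524 CPM in HFD against 266, 1539 and 4808 CPM in LFD embryos. Its medians were the farthest apart of the 6 (-0.24 on the log2 scale), but the fitted log2 fold change was -0.06 ± 0.10 (FDR 0.882), with a 95% interval of the ratio from 0.842 to 1.10. Nobox had 34.4, 100.8 and 408 CPM against 42.3, 102.4 and 410 CPM, and a log2 fold change of -0.00 ± 0.09 (FDR 0.999). HFD embryos above the LFD median numbered between 46 (Bmp15) and 63 (Zp3). Each 95% interval covers 1, which does not show that the levels were the same.

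**Figure D2:**
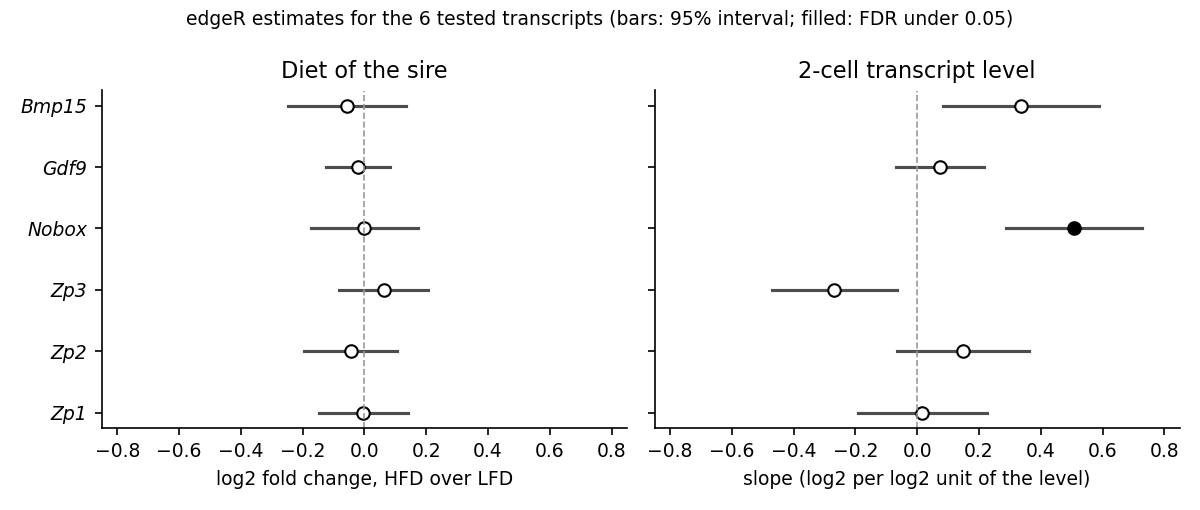
Left, log2 fold change of HFD over LFD embryos for the 6 tested transcripts; right, slope of each on the summed level of 2-cell transcripts, in log2 units per log2 unit. Points are edgeR estimates, bars their 95% intervals, and a filled point marks an FDR under 0.05. Every interval on the left covers 0, and on the right the Nobox slope of 0.51 is the filled one.

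The labels name no batch, so the levels were also compared within ranges of 10 consecutive embryo numbers, of which 11 held both diets. The level of Bmp15 differed between ranges, each of which held only 8 to 10 HFD embryos. Its mean in HFD embryos ran from 9.81 log2 CPM (numbers 81 to 90) to 11.07 (numbers 11 to 20), and the difference between diets within a range ran from -0.90 to 0.86 log2. HFD was higher in 5 of 11 ranges for Bmp15, 5 for Zp2, 5 for Zp1, 3 for Gdf9, 6 for Nobox and 7 for Zp3. Whether the numbers follow a handling date is not given. Without the HFD embryos numbered 31 to 70, a choice made after seeing the data, all 6 fold changes turned sign and none was called (Zp2 0.08, Gdf9 0.07, Bmp15 0.06 and Zp3 -0.03 on the log2 scale, lowest FDR 0.787).

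**Figure D3:**
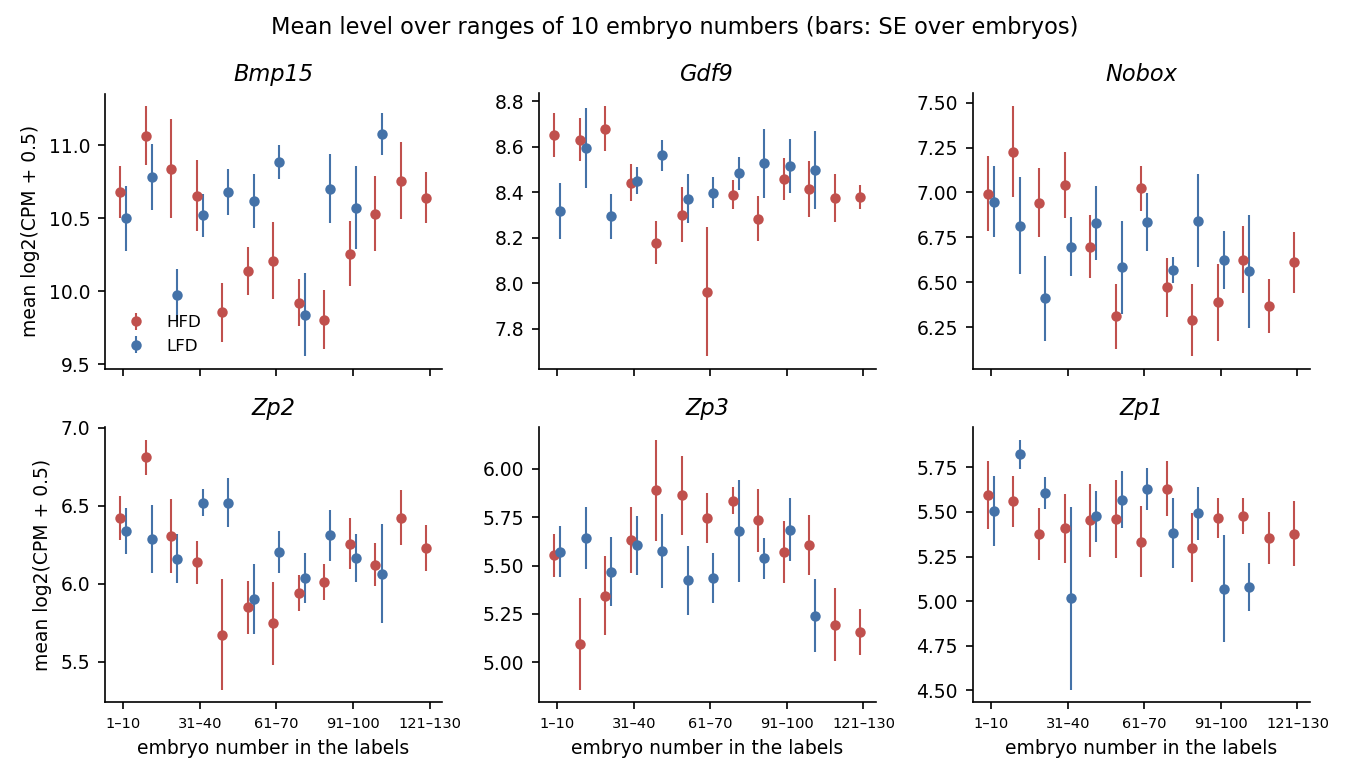
Mean log2(CPM + 0.5) of 6 transcripts over ranges of 10 embryo numbers, HFD in red and LFD in blue, with standard errors over embryos as bars. For Bmp15 the HFD means fall to 9.81 for numbers 81 to 90 and lie at 11.07 for numbers 11 to 20, and the order of the diets changes from range to range.

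The second comparison asked whether embryos with more transcripts of the activated genome held less of these messages. The level was the log2 of the summed CPM of 23 2-cell genes such as the Zscan4 family, and averaged 11.56 ± 0.36 (SD) in HFD and 11.55 ± 0.33 in LFD embryos. With diet in the model, 1 of the 6 messages was called, Nobox, with a positive slope of 0.51 ± 0.11 log2 per log2 unit (SE; FDR 0.000382). Of 14797 genes tested, 2527 were called (17.1%), 1066 with a positive slope (7.2%) and 1461 with a negative one (9.87%). Bmp15 had a slope of 0.34 ± 0.13 (FDR 0.0541) and Zp3 one of -0.27 ± 0.10 (FDR 0.0557), both short of the threshold. Zp2 (0.15, FDR 0.367), Gdf9 (0.07, FDR 0.53) and Zp1 (0.02, FDR 0.942) were farther from it.

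The Nobox slope depended on which 2-cell genes made up the level. With the Zscan4 genes alone it was 0.40 (FDR 3.66e-11), and Bmp15 (0.16, FDR 0.0431) and Gdf9 (0.11, FDR 0.013) were then called as well. With the Zscan4 genes left out it was -0.06 (FDR 0.832), and the Zp3 slope of -0.34 (FDR 0.0209) was the 1 call. Without the few-gene embryos, Nobox (0.54), Bmp15 (0.36, FDR 0.027) and Zp3 (-0.28, FDR 0.0238) were called. With the Zscan4 genes alone, more genes were called over all genes as well, as given at the end. The share over all genes was not compared in these fits, so the counts of messages are not read as a result. Within the diets the Nobox slope was 0.54 in HFD (FDR 0.00664) and 0.40 in LFD embryos (FDR 0.192). The difference between them was not tested.

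Of 57 other genes of the same pathways tested, 1 was called with diet, near the 2.12% of all genes. Of 5 egg surface genes tested, none was called. The most abundant were Cd9, a tetraspanin needed for gamete fusion (86.1 CPM), and Izumo1r, the egg receptor for sperm IZUMO1 (19.1 CPM). Of 18 receptors, SMADs and processing enzymes of GDF9 and BMP15 signalling tested, none was called, among them the type II receptor Bmpr2 (0.18 ± 0.06, FDR 0.106). Smad3, an intracellular mediator, was the most abundant of that list (145.5 CPM), followed by Smad2 (75.8 CPM). At an unadjusted p under 0.05 there were 2 egg surface and 3 signalling genes, 1 transcription factor and 7 other oocyte transcripts of the lists described next, against 1890 of 14820 over all genes.

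None of 8 oocyte transcription factors tested was called with diet. Foxo3 (356 CPM), known for holding follicles dormant, and Taf4b (179 CPM), a TFIID subunit of the gonads, were the most abundant. Of 26 other oocyte transcripts tested, 1 was called. Tle6, a component of the subcortical maternal complex, was lower in HFD embryos, with medians of 112.1 and 132 CPM and a log2 fold change of -0.23 ± 0.07 (FDR 0.0319). The Tle6 call was lost without the HFD embryos numbered 31 to 70 (FDR 0.289), with the Y-linked level as covariate (FDR 0.0545) and, by limma-voom, with number ranges as a random effect, that is with an estimated correlation (adjusted p = 0.0863). Omt2a (4540 CPM) and Omt2b (4387 CPM) were the most abundant of the list and were not called (0.14, FDR 0.274, and 0.16, FDR 0.183). The median log2 fold change was -0.01 over the 6 messages and 0.00 over all genes tested.

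On the 2-cell level, 11 of the 57 other pathway genes were called, near the 17.1% of all genes. Of the 26 other oocyte transcripts, 7 had a positive slope past the threshold and none a negative one. Over all genes 7.2% had a positive and 9.87% a negative one. Those with the smallest p were Ccnb1, a mitotic cyclin (0.56), Oas1d (0.55), Rnf114, a ubiquitin ligase (0.43) and H1f8, the oocyte linker histone (0.52). Among the transcription factors, Sohlh2 had a positive slope (0.75, FDR 0.0326) and its partner Sohlh1 a negative one (-2.45, FDR 7.99e-05), at a median of 0.774 CPM. Cd9 (-0.60, FDR 7.15e-05) and the inhibitory Smad7 (-1.21, FDR 0.000553) were the only calls of their lists. Of 4 macrophage markers tested, Cd68 alone was called, with a negative slope (-1.26, FDR 0.0205).

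The messages also varied with one another from embryo to embryo. Correlations of log2(CPM + 0.5) were computed within each diet for the 21 pairs of the 7 messages, 42 relations in all, with 100000 permutations (2-sided) and Benjamini-Hochberg adjustment over the 42. By Spearman's rho 23 were past an FDR of 0.05, 18 positive and 5 negative, and by Pearson's r also 23. Both values of a relation come from the same libraries and share the total count as denominator.

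Bmp15 and Nobox gave the highest rho in HFD embryos. In HFD embryos r was 0.54 and rho 0.56, and in LFD embryos r was 0.45 and rho 0.48 (each permutation p = 1e-05, the smallest that 100000 permutations can give, FDR 6e-05 for rho). Without the 2 embryos farthest from the Bmp15 median, r was 0.61 and 0.45. Bmp15 and Zp2 gave rho of 0.53 and 0.44, and r of 0.62 and 0.44 (0.56 and 0.40 without the 2 embryos farthest from the Zp2 median). Bmp15 and Gdf9 gave rho of 0.48 and 0.46, and r of 0.47 in both diets (0.42 and 0.37 without the 2 farthest in Gdf9). All of these had an FDR of at most 0.000115.

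Zp3 and Bmp15 were negatively related in both diets. Their rho was -0.54 in HFD embryos (FDR 6e-05) and -0.29 in LFD embryos (FDR 0.00911), and r was -0.54 and -0.32 (-0.52 and -0.24 without the 2 embryos farthest from the Zp3 median). Embryos rich in Bmp15 were thus poorer in Zp3. Without the few-gene embryos the LFD values were smaller, with r of -0.18 and rho of -0.24, and the HFD values were -0.52 and -0.53. The rho of Zp3 with Nobox was -0.26 in HFD (FDR 0.00998) and -0.11 in LFD embryos (FDR 0.372), and that with Gdf9 was -0.15 (FDR 0.152) and -0.03 (FDR 0.774). Zp2 and Zp3, which are joined in the coat's filaments, had a rho of -0.38 in HFD (FDR 6e-05) and 0.03 in LFD embryos (FDR 0.8), and r of -0.42 and 0.03. The difference of rho between the diets, -0.41, had a permutation p of 0.0033 and an FDR of 0.0693 over the 21 pairs, and so failed the correction. By rho, Zp1 was related past the threshold to Zp2 alone, with 0.23 in both diets (FDR 0.0208 and 0.0404). By r it was also related to Gdf9 in HFD embryos (0.23, FDR 0.0247). Without the few-gene embryos that r was 0.13, and the rho of the pair over all HFD embryos was 0.17 (FDR 0.104). The r of Zp1 with Zp2 was 0.29 in HFD embryos and 0.05 in LFD embryos, the latter 0.28 without the 2 embryos farthest from the Zp1 median.

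**Figure D4:**
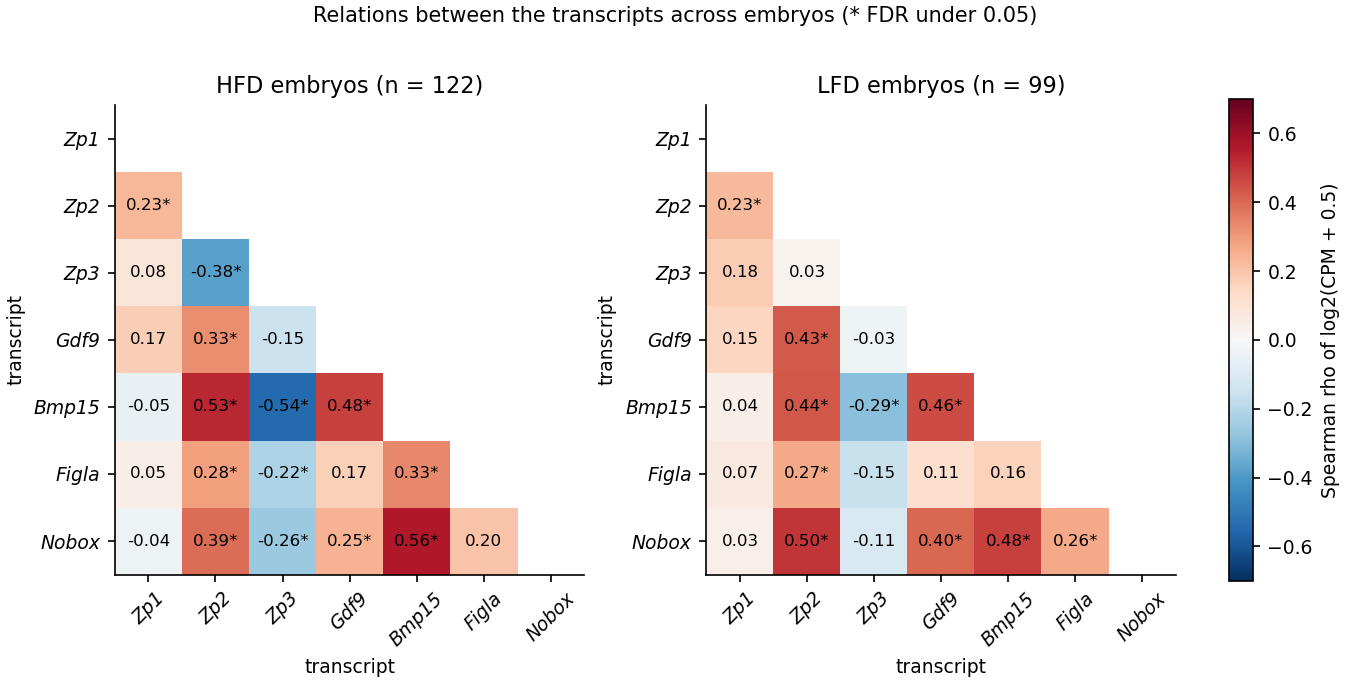
Spearman's rho between the transcripts across embryos, for HFD (left) and LFD (right) embryos. Red is positive, blue negative, and a star marks an FDR under 0.05 over the 42 relations. Bmp15, Gdf9, Nobox and Zp2 are positively related in both diets, and Zp3 is negatively related to Bmp15 in both.

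Values centred on the ranges of 10 embryo numbers gave similar relations. Bmp15 and Nobox then had rho of 0.53 in HFD and 0.47 in LFD embryos, Bmp15 and Zp3 -0.43 and -0.32, and Zp2 and Zp3 -0.24 and -0.00. The number of relations past the threshold was 21.

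The relations moved together with the composition of the libraries. The summed level of 89 cytosolic ribosomal protein genes was related to Bmp15 with rho of -0.80 in HFD and -0.65 in LFD embryos (r -0.78 and -0.62, each p = 1e-05, the smallest possible, FDR 2e-05 for rho over 14 relations). Leaving out the 2 embryos farthest from the Bmp15 median gave r of -0.75 and -0.55. The values of rho were -0.62 and -0.51 for Nobox, -0.46 and -0.47 for Zp2, -0.37 and -0.33 for Gdf9 and -0.36 and -0.24 for Figla. Zp3 had the opposite sign (0.55 and 0.33), and Zp1 was near 0 (0.08 and 0.01). When a straight line on that level was removed from every message, a step added after seeing the data, 2 of the 42 relations were past the threshold by rho and 10 by r. The pairs left by rho were Zp1 with Zp2 in HFD embryos (0.34, FDR 0.00714) and Zp2 with Nobox in LFD embryos (0.34, FDR 0.0143). The Bmp15 and Nobox relation fell to 0.11 and 0.19, and that of Bmp15 and Zp3 to -0.12 and -0.09. Other library measures moved with the same messages. The summed level of mitochondrially encoded genes was related to Bmp15 with rho of -0.46 in HFD and -0.55 in LFD embryos (r -0.56 and -0.62, permutation p = 1e-05 each, the smallest possible, FDR 7e-05 for rho over 14 relations), and r was -0.47 and -0.60 without the 2 embryos farthest from the Bmp15 median. For Gdf9 rho was -0.41 and -0.23, and for Zp2 -0.23 and -0.35. These genes took 5.80% ± 2.23 (SD) of counts in HFD and 4.48% ± 1.66 in LFD embryos. Zp2 was related to the number of detected genes in HFD embryos with r of 0.59 and rho of 0.34, and r was 0.30 without the few-gene embryos. The part of these measures in the relations between messages was not tested.

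**Figure D5:**
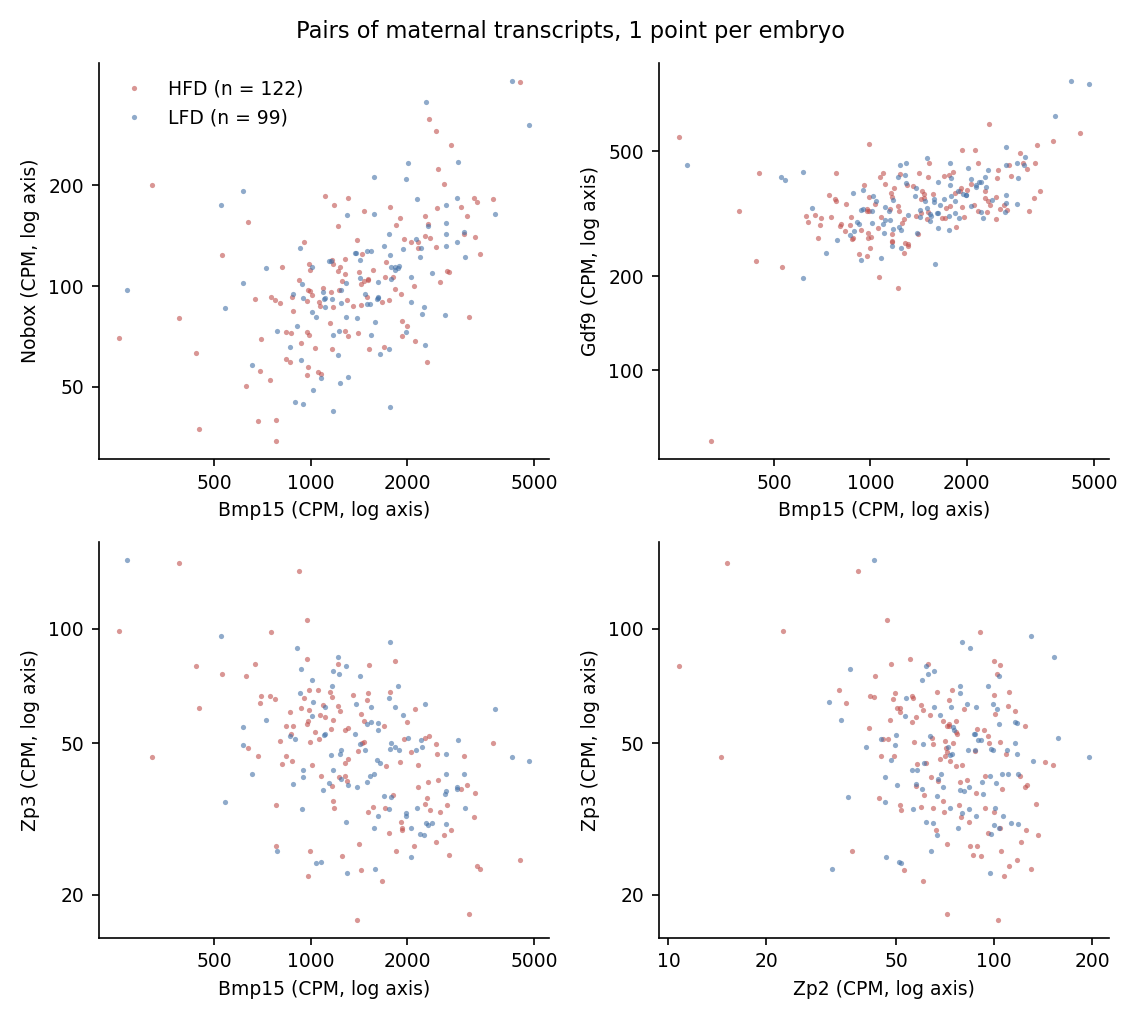
Levels of 4 pairs of transcripts in CPM on log axes, 1 point per embryo, HFD in red and LFD in blue. Nobox and Gdf9 are higher where Bmp15 is higher, Zp3 is lower where Bmp15 is higher, and Zp2 and Zp3 show rho of -0.38 in HFD and 0.03 in LFD embryos.

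Among the 14814 other tested genes, those most like each message across embryos were ranked by the mean of the 2 within-diet rho values, as a description. Bmp15 had the closest match, Rab7, a small GTPase of late endosomes (0.85), followed by Arf1, a small GTPase of the Golgi (0.85), and 539 genes were above 0.5 and 617 below -0.5. Nobox was most like Copz1 (0.70) and Rbm7 (0.68), Zp2 most like G6pdx (0.66), and Gdf9 most like Gm13089 (0.58) and Laptm4b (0.58). Zp3 was most like the tetraspanin Cd63 (0.54) and Tomm6os (0.54). Zp1 had no gene above 0.5, and was most like Padi6, a protein of the oocyte's cytoplasmic lattices (0.39), and Ninj1 (0.37).

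Zp3 and Bmp15, the pair with the most negative relation, are shown by the 250 bases before their start sites (RefSeq, GRCm38.p6, gene strand; Zp3 at chr5:135979855-135980104, plus, and Bmp15 at chrX:6320725-6320974, minus). Capitals mark CANNTG, the E-box letters that helix-loop-helix factors such as FIGLA read, and TAATTA, homeobox core letters. The RefSeq start of Bmp15 lies upstream of the one in the count table.
Zp3: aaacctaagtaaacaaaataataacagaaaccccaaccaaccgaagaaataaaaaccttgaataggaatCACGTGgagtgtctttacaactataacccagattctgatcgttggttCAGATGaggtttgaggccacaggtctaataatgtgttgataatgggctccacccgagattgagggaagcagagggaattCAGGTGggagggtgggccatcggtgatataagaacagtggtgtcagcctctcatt
Bmp15: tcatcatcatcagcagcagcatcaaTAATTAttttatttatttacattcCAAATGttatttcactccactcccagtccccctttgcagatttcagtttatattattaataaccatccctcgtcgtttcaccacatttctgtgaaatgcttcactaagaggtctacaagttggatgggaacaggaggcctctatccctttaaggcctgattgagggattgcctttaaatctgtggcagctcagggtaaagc
The Zp3 stretch holds CANNTG at -181, -134 and -55 from the start, and the Bmp15 stretch holds 1 at -201 and TAATTA at -225. In windows from 250 bases before to 50 after the start, CANNTG occurred in 72.3% of 32851 promoters and 3 or more times in 17.6%, and TAATTA in 5.29%. TAATTG, which occurred in 8.0%, was in neither, and TATAAA (13.6%, both strands) was in Bmp15 as TTTATA at -155. Promoters of 4 of the 7 genes were matched. The whole window held CANNTG 4 times in Zp3, 2 times in Nobox and 4 times in Figla, of which 3, 2 and 2 lay before the start. Nobox and Figla held none of the other 3 motifs. A match gives letters only, and binding was not measured.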

How the data were processed

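The authors deposited unnormalized counts for every gene in each embryo, from Smart-seq2 libraries of single embryos sequenced as read pairs. Per the study's methods and the submitters' processing notes, reads were trimmed with Trim Galore 0.6.6, aligned with STAR 2.7.10a to GRCm38 with the ST mtDNA, and counted over exons by gene name with featureCounts at strand setting 2. Smart-seq2 does not mark strand, so such counting can leave out reads of the other orientation. All 221 count columns were used.

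Counts were tested with edgeR 4.0.16 (TMM factors, filterByExpr, quasi-likelihood test, Benjamini-Hochberg adjustment, FDR under 0.05) in R 4.3.3, on all genes at once, with diet, or diet and the 2-cell level, in the model. DESeq2 1.42.0 and limma 3.58.1 were alternatives. Levels and relations used log2(CPM + 0.5), in Python 3.11.15 with scipy 1.17.1. Levels per length were CPM over exon kilobases. The members and lists were chosen with earlier results of these data known. The named genes were all members, the called genes of the fixed lists (at most 4 a list, by smallest p), the most abundant of each list and the 2 genes most like each member, of which 1 is not reported here. In data simulated from these means over 14820 genes, 66% of diet changes of 0.5 and 17% of those of 0.25 on the log2 scale were recovered. For the slope the shares were 29% and 3%.

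Embryo numbers occur in both diets. Over 94 shared numbers, the deviations of same-numbered embryos had a median correlation of 0.00623 (17 pairs over 0.1), so the numbers do not pair the samples.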

Additional observations from a re-analysis of the deposited data

How the results depend on the processing

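None of the 6 tested messages was called between the diets in any of the 14 alternatives, from which Figla was left out. Log2 fold changes ran from -0.23 to 0.06 for Bmp15 and from -0.03 to 0.15 for Zp3. Small differences changed sign. Zp1 was 0.0024 without mitochondrially encoded genes, 0.029 by limma-voom, 0.023 with number ranges as a term, 0.0027 with the Y-linked level as covariate, and, added after seeing the data, 0.031 with number ranges as random effect and 0.021 without HFD embryos 31 to 70. Nobox was 0.0028 without mitochondrially encoded genes, 0.0059 without few-gene embryos, 0.023 with number ranges, 0.022 with the Y-linked and 0.0019 with the macrophage covariate, and 0.011 without HFD embryos 31 to 70, where Zp2 was 0.083, Zp3 -0.035, Gdf9 0.065 and Bmp15 0.064. Leaving out each embryo in turn moved the difference of mean log2 levels from -0.16 to -0.12 for Bmp15, -0.07 to -0.04 for Gdf9, -0.05 to -0.01 for Nobox, -0.05 to 0.01 for Zp1, -0.12 to -0.08 for Zp2, -0.00 to 0.03 for Zp3 and -0.13 to -0.08 for Figla.

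Genes called between the diets, 314 of 14820, became 7030 with no low-count filter, where every gene with a count was tested. They became 560 without few-gene embryos, 547 with number ranges, 175 without HFD embryos 31 to 70 and 80 with ranges as random effect. The number of genes tested can differ between these fits. The other pathway genes called, 1 of 57, became 2 by DESeq2 and by limma-voom, 4 with no filter or without few-gene embryos, 3 with number ranges, and 0 with the Y-linked covariate, without HFD embryos 31 to 70 or with the random effect. By DESeq2, by limma-voom and with the Y-linked covariate the count over all genes is not given here, so those pathway counts are not read as a result. The causes were not tested. With the embryo number as a block, 0 messages, 7 pathway genes and 806 genes were called, against 7 and 762 in the same embryos without the block; Zp1 was 0.028 with the block and 0.053 without, and Nobox 0.026 and 0.0080.

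On the 2-cell level, the messages called, 1, became 3 with the Zscan4 genes alone and 0 in LFD embryos alone, where the count over all genes moved as well. The messages called were 2 with RLE factors and 3 without few-gene embryos or with the number of detected genes as covariate. These last counts have no count over all genes beside them and are not read as a result. Zp1 turned to -0.029 with RLE factors, -0.0099 without few-gene embryos, -0.075 in LFD embryos and -0.024 without the Zscan4 genes, where Gdf9 was -0.093 and Nobox -0.060. The 2527 genes called of 14797 became 6596 with no filter, where every gene with a count was tested. They became 1071 in HFD and 622 in LFD embryos alone (fewer samples), and 5203 with the Zscan4 genes alone. For the other fits the count over all genes is not given here. The 11 pathway genes became 5 in LFD embryos and 23 with the Zscan4 genes alone. After the line on the ribosomal protein level, 10 relations by r and 2 by rho of 23 each were called, and Zp3 with Nobox in HFD embryos turned from -0.26 to 0.25.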
